A study of Homo sapiens with 8 samples.

Results

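FAS, TNFRSF10A, TNFRSF10B, FADD, CFLAR, CASP8, CASP10 and CASP9, the core genes of the death receptor pathway with the initiator caspase of the mitochondrial pathway, were followed through RNA-seq of 2 B cell lymphoma lines. These 8 genes were taken by symbol, with a rule that uses no measured value. They are 8 of the 18143 genes whose values could be placed in the deposited table, which carries 63967 gene labels. The lines were Raji, a rituximab sensitive Burkitt's lymphoma cell line, and Raji-4RH, a rituximab resistant line that was raised from Raji by exposing it to rituximab repeatedly. Each line was given either DMSO, the solvent, or chidamide, an inhibitor of histone deacetylases, at 3 μM, and all cells were collected by flow sorting after 24 h. Each of the 4 groups (Raji DMSO, Raji chidamide, Raji-4RH DMSO, Raji-4RH chidamide) had 2 libraries, and all cells were at 2-3 passages. The sources used here do not say whether the 2 libraries of a group came from separate cultures. The p-values therefore measure the spread between these libraries, which may be technical.

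Death receptors sit in the cell membrane and carry a death domain on their inner side. When their ligand binds (FAS ligand for FAS, TRAIL for TNFRSF10A and TNFRSF10B, which are also called DR4 and DR5), the adaptor FADD joins the receptor and brings procaspase-8 and procaspase-10 together, which activates them. The product of CFLAR, c-FLIP, resembles caspase-8 without its activity, enters the same complex and can hold activation back. Caspase-9 belongs to the other route, in which cytochrome c from the mitochondria assembles APAF1 into the apoptosome. Both routes end in the executioner caspases, and in mature B cells FAS is known for removing activated cells. RNA levels do not show whether a caspase was cleaved.

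The unit was FPKM, the reads of a gene divided by the length of its joined exons and by the total reads of the library. Library totals ran from 13991697 reads (Raji-4RH chidamide replicate 1) to 21193441 (Raji-4RH DMSO replicate 2). All 8 B cell markers looked for, among them CD79A and CD22, reached 1 FPKM. Their summed level was between 1176 and 1223 FPKM for Raji DMSO, 1056 and 1067 for Raji chidamide, 784 and 826 in Raji-4RH DMSO, and 646 and 686 in Raji-4RH chidamide. The B cell markers did not move alike with chidamide. CD79A went from 575 and 537 FPKM to 292 and 288 in Raji, and from 357 and 385 to 166 and 189 in Raji-4RH. MS4A1 went the other way, from 53.8 and 58.7 to 129 and 118 in Raji, and from 12.5 and 12.9 to 22.0 and 25.3 in Raji-4RH. Markers of other cells also moved with chidamide. The summed level of 5 monocyte or macrophage markers was between 0.917 and 1.04 FPKM in the DMSO libraries and between 9.73 and 10.8 in the chidamide libraries, with 3 of 5 (LYZ, ITGAM, CSF1R) reaching 1 FPKM and CD163 under 0.1 in every library. That of 6 T cell markers ran from 0.0937 in Raji DMSO to 5.51 in Raji-4RH chidamide, with 1 of 6 (CD3E) reaching 1 FPKM and TRAT1 under 0.1 in every library. For 4 fibroblast markers it was at most 0.199 in DMSO and between 1.19 and 2.37 in chidamide, with 1 of 4 (COL1A1) reaching 1 FPKM and COL1A2 under 0.1 in every library. Sums of 5 NK cell and 4 epithelial markers stayed at or below 0.522. The part of these markers in the results was not tested. In bulk RNA, fewer cells of a type and less RNA per cell cannot be told apart.

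Of the genes, 3 stand in a row on the long arm of chromosome 2, all on the plus strand: CFLAR (chr2:201116104-201176687), CASP10 (chr2:201182881-201229406) and CASP8 (chr2:201233443-201287711, GRCh38). Only 6193 bases separate CFLAR from CASP10 and 4036 separate CASP10 from CASP8. All 3 rose with chidamide in both lines, except that CFLAR in Raji-4RH turned to -0.23 after quantile normalization. Windows of 300 bases around the first-listed RefSeq starts, most of each upstream of the start, were taken for CFLAR, CASP8, FAS and FADD. CFLAR and CASP8 were chosen as neighbours that rose with chidamide in both lines before quantile normalization. They did not move together otherwise. Raji-4RH DMSO differed from Raji DMSO by -0.90 for CFLAR and 0.69 for CASP8, and their Pearson r over the 8 libraries was -0.29. FAS and FADD were chosen because the receptor rose in both lines before quantile normalization while its adaptor did not pass the test. The table of windows (RefSeq, GRCh38.p14) held 13 windows for 5 of the 8 genes. Capitals mark the GC box, GGGCGG on either strand, which is a motif bound by Sp family factors.
CFLAR: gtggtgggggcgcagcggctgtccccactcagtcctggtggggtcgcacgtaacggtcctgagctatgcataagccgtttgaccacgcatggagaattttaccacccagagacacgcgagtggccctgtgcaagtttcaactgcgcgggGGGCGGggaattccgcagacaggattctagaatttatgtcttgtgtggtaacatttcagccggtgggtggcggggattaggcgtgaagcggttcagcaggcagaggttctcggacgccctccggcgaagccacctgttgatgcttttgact
CASP8: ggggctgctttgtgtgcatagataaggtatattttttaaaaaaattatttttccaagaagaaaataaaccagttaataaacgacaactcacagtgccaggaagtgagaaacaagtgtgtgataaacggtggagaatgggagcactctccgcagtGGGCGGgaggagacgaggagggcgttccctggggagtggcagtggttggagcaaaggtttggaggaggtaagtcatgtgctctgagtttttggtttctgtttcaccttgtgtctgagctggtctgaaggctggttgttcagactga
FAS: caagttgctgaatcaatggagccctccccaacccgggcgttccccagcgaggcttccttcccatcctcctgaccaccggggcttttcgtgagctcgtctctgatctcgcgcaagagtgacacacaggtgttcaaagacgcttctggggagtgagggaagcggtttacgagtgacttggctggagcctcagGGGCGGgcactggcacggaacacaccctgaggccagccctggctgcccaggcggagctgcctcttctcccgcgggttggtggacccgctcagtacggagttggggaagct
FADD: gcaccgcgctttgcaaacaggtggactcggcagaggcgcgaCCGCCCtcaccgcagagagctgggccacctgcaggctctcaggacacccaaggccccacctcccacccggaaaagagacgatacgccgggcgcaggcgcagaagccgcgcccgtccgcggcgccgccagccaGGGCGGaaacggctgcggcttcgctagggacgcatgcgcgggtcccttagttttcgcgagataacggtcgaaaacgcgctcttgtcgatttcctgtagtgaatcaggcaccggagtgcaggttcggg
These are chr2:201118466-201118765, chr2:201233213-201233512, chr10:88990548-88990847 and chr11:70203046-70203345, all on the plus strand. The windows of CFLAR, CASP8 and FAS each held 1 GC box and that of FADD held 2, while 45% of all 35116 windows in the table held at least 1. The first-listed CASP9 window (chr1:15524166-15524465, minus strand) held 8 GC boxes by overlapping matches, and 15.8% of all windows held 3 or more. The CASP8 window had 6 CpG, against 21 in the CFLAR window, 18 in the FAS window, 36 in the FADD window and a median of 14 over all windows. TGANTCA, a loose form of the AP-1 motif with any base at N, had 1 match in each of the FAS and FADD windows. Both matches read TGAATCA, and the loose form was held by 7.71% of all windows. These matches describe letters in the windows and not bound sites.

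**Figure D1:**
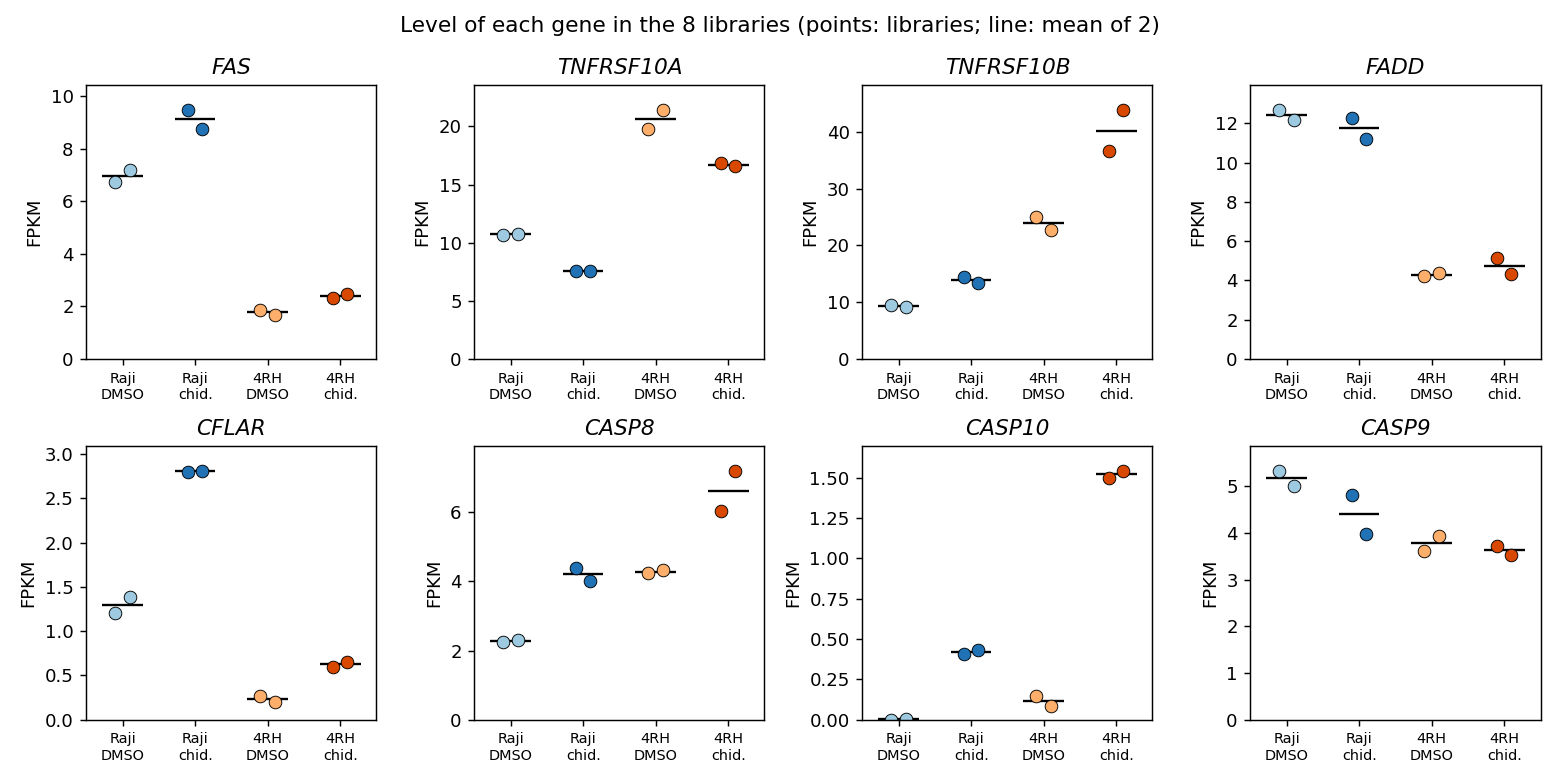
Level of each gene (FPKM, linear axis from 0) in the 8 libraries, by group; each point is a library and each line the mean of 2. The TNFRSF10B libraries rise from 9.18 FPKM in Raji DMSO to 43.9 in Raji-4RH chidamide, while both Raji-4RH groups lie far below both Raji groups for FAS, FADD and CFLAR.

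Among the receptors, FAS (ENSG00000026103, chr10:88990582-89015785, plus strand) had 6.74 and 7.18 FPKM in Raji DMSO against 9.47 and 8.75 in Raji chidamide. In Raji-4RH it had 1.86 and 1.69 FPKM with DMSO and 2.30 and 2.46 with chidamide. Both chidamide libraries were above both DMSO libraries within each line, and every Raji-4RH library was below every Raji library. The group means were 6.96 ± 0.311, 9.11 ± 0.510, 1.77 ± 0.120 and 2.38 ± 0.114 FPKM (SD, n = 2) in this order. FAS rose by 0.34 in Raji (SE 0.067, limma adjusted p = 0.00233) and by 0.29 in Raji-4RH (SE 0.067, limma adjusted p = 0.00414), as differences of log2(FPKM + 1). The FPKM ratios of chidamide to DMSO were 1.31 and 1.35. The rise in Raji-4RH was -0.18 after quantile normalization (limma adjusted p = 0.0301), so its direction there depends on the scaling. The 4 FAS libraries of Raji-4RH rest on 137 to 193 reads each, and 8.93% of its exon bases overlap exons of ACTA2 on the other strand.

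The pair of TRAIL receptors moved in opposite directions. TNFRSF10A (DR4, ENSG00000104689, chr8:23190452-23225126, minus strand) had 10.7 and 10.7 FPKM in Raji DMSO against 7.56 and 7.58 in Raji chidamide. The Raji-4RH libraries had 19.8 and 21.4 FPKM with DMSO and 16.8 and 16.6 with chidamide. All chidamide libraries were below the DMSO libraries of their line. The fall was -0.45 in Raji (SE 0.054, limma adjusted p = 1.69e-04) and -0.28 in Raji-4RH (SE 0.054, limma adjusted p = 0.00141) on the log2(FPKM + 1) scale, or FPKM ratios of 0.707 and 0.812. After quantile normalization the Raji-4RH value was -0.13 and no longer passed (limma adjusted p = 0.0736). Exons of AC100861.1 and TNFRSF10A-AS1 on the other strand overlap 16.6% of its exon bases.

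TNFRSF10B (DR5, ENSG00000120889, chr8:23020133-23069179, minus strand) had 9.44 and 9.18 FPKM in Raji DMSO against 14.5 and 13.5 in Raji chidamide. In Raji-4RH it had 25.1 and 22.8 FPKM with DMSO and 36.6 and 43.9 with chidamide. No groups overlapped, and the gene was the most abundant of the 8 in every group except Raji DMSO. It rose by 0.54 in Raji (SE 0.089, limma adjusted p = 9.74e-04) and by 0.72 in Raji-4RH (SE 0.089, limma adjusted p = 9.96e-05) on the log2(FPKM + 1) scale, with FPKM ratios of 1.5 and 1.68. Within a library, a ratio between genes does not depend on the library's scaling. The FPKM ratio of TNFRSF10B to TNFRSF10A was 0.882 and 0.857 in Raji DMSO, 1.92 and 1.78 in Raji chidamide, 1.27 and 1.06 in Raji-4RH DMSO, and 2.17 and 2.64 in Raji-4RH chidamide. TNFRSF10A thus led in Raji DMSO alone, and the ratio was higher in the chidamide libraries of each line. These ratios were chosen after the values were seen and are given with no test.

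FADD (ENSG00000168040, chr11:70203163-70207390, plus strand), the adaptor shared by these receptors, had 12.7 and 12.2 FPKM in Raji DMSO against 12.3 and 11.2 in Raji chidamide. The levels in Raji-4RH were 4.23 and 4.36 FPKM with DMSO and 5.16 and 4.34 with chidamide. The libraries of both treatments overlapped within each line, and all Raji-4RH libraries were below all Raji libraries. The change with chidamide was -0.077 in Raji (95% interval -0.26 to 0.10, limma adjusted p = 0.435) and 0.12 in Raji-4RH (95% interval -0.065 to 0.30, limma adjusted p = 0.211). Without Raji-4RH chidamide replicate 2 the Raji-4RH value was 0.22 and passed (limma adjusted p = 0.0218), and after quantile normalization it was -0.095 (limma adjusted p = 0.420). Of the exon bases of FADD, 54.9% overlap exons of AP000879.1 on the other strand. Whether reads were counted by strand is not given in the sources used here, so reads of overlapping genes on opposite strands may not be separated. The FADD values stood 4 rows below the FADD label in the table, and its levels depend on that placement.

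CFLAR (ENSG00000003402), the inhibitor of the complex, had 1.20 and 1.38 FPKM in Raji DMSO against 2.79 and 2.81 in Raji chidamide. Raji-4RH showed 0.265 and 0.201 FPKM with DMSO, from 112 and 96 reads, and 0.596 and 0.658 with chidamide. Chidamide libraries were above DMSO libraries in each line, and every Raji-4RH library was below every Raji library, the Raji-4RH chidamide ones included. CFLAR rose by 0.73 in Raji (SE 0.064, limma adjusted p = 3.10e-05) and by 0.40 in Raji-4RH (SE 0.064, limma adjusted p = 5.06e-04) on the log2(FPKM + 1) scale, which understates changes of low genes. The FPKM ratios were 2.17 and 2.69. After quantile normalization the Raji-4RH value was -0.23 (limma adjusted p = 0.0106), so this direction depends on the scaling. The joined exons of CFLAR span 22529 bases, more than any other of the 8 genes, and FPKM divides by this length. Of these bases 12% are shared with other annotated genes (AC007283.1, CFLAR-AS1, IMPDH1P10).

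CASP8 (ENSG00000064012), the main initiator caspase at death receptors, had 2.24 and 2.32 FPKM in Raji DMSO against 4.38 and 4.01 in Raji chidamide. In Raji-4RH it had 4.23 and 4.32 FPKM with DMSO and 6.03 and 7.20 with chidamide. Raji chidamide and Raji-4RH DMSO overlapped, Raji DMSO was below both and Raji-4RH chidamide above both. CASP8 rose by 0.66 in Raji (SE 0.080, limma adjusted p = 1.69e-04) and by 0.52 in Raji-4RH (SE 0.080, limma adjusted p = 3.81e-04) on the log2(FPKM + 1) scale, with FPKM ratios of 1.84 and 1.55. None of its exon bases are shared with another annotated gene. The FPKM ratio of CASP8 to CFLAR was 1.86 and 1.67 in Raji DMSO, 1.57 and 1.43 in Raji chidamide, 16.0 and 21.5 in Raji-4RH DMSO, and 10.1 and 10.9 in Raji-4RH chidamide. The ratio was therefore higher in all Raji-4RH libraries than in all Raji libraries, and lower with chidamide in each line. That of CASP8 to FADD was 0.176 and 0.190 in Raji DMSO, 0.357 and 0.358 in Raji chidamide, 1.00 and 0.991 in Raji-4RH DMSO, and 1.17 and 1.66 in Raji-4RH chidamide. Their size depends on the joined exon lengths, and their relative differences between libraries do not. These ratios, too, were chosen after the values were seen.

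**Figure D2:**
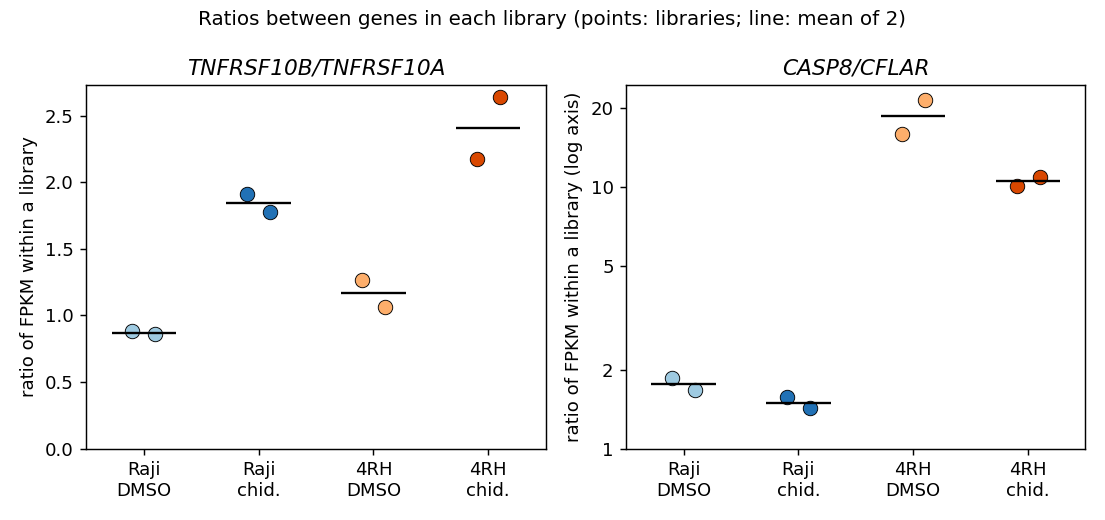
Ratio of FPKM between genes within each library: TNFRSF10B to TNFRSF10A (left, linear axis from 0) and CASP8 to CFLAR (right, log axis), with a point per library and a line at the mean of 2. Chidamide libraries lie higher on the left in each line, while Raji-4RH libraries (10.1 to 21.5) lie above Raji libraries (1.43 to 1.86) on the right.

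CASP10 (ENSG00000003400), a second initiator caspase that FADD can recruit, was close to absent in Raji DMSO. There it had 0 and 1 reads, the latter equal to 0.00653 FPKM, against 64 and 68 reads (0.409 and 0.430 FPKM) in Raji chidamide. In Raji-4RH it had 21 and 14 reads (0.147 and 0.0869 FPKM) with DMSO and 159 and 216 reads (1.5 and 1.54 FPKM) with chidamide. The 4 groups did not overlap, and the order was Raji-4RH chidamide, Raji chidamide, Raji-4RH DMSO and Raji DMSO. Per total reads, chidamide libraries held 127 times the reads of DMSO libraries in Raji (132 against 1 reads, 95% exact interval 22.4 to 5057) and 13.2 times in Raji-4RH (375 against 35 reads, 95% exact interval 9.33 to 19.2). These intervals cover counting error only. On the log2(FPKM + 1) scale CASP10 rose by 0.50 in Raji (SE 0.057, limma adjusted p = 1.22e-04) and by 1.17 in Raji-4RH (SE 0.057, limma adjusted p = 4.54e-07). It passed the filter on low values (at least 1 FPKM in at least 2 libraries) only through the Raji-4RH chidamide libraries, so its calls against that group are a description. The FPKM ratio of CASP8 to CASP10 was 10.7 and 9.33 in Raji chidamide, 28.7 and 49.7 in Raji-4RH DMSO, and 4.03 and 4.66 in Raji-4RH chidamide.

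CASP9 (ENSG00000132906, chr1:15490832-15526534, minus strand), the initiator of the apoptosome, had 5.33 and 5.01 FPKM in Raji DMSO against 4.81 and 3.98 in Raji chidamide. Raji-4RH had 3.62 and 3.94 FPKM with DMSO and 3.73 and 3.53 with chidamide. The Raji groups did not overlap and the Raji-4RH groups did. The change with chidamide was -0.20 in Raji (95% interval -0.39 to -0.0085, limma adjusted p = 0.0682) and -0.045 in Raji-4RH (95% interval -0.23 to 0.14, limma adjusted p = 0.635). The Raji value passed without Raji chidamide replicate 1 (-0.31, limma adjusted p = 0.0208), with median-centred samples (-0.24, limma adjusted p = 0.0386) and with limma voom (-0.24, limma adjusted p = 0.0474). After quantile normalization both lines passed, at -0.29 in Raji (limma adjusted p = 0.0274) and -0.34 in Raji-4RH (limma adjusted p = 0.00992). Without Raji-4RH DMSO replicate 2 the Raji-4RH value was 0.0027 (limma adjusted p = 0.984). The CASP9 values stood 1 row below the CASP9 label.

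**Figure D3:**
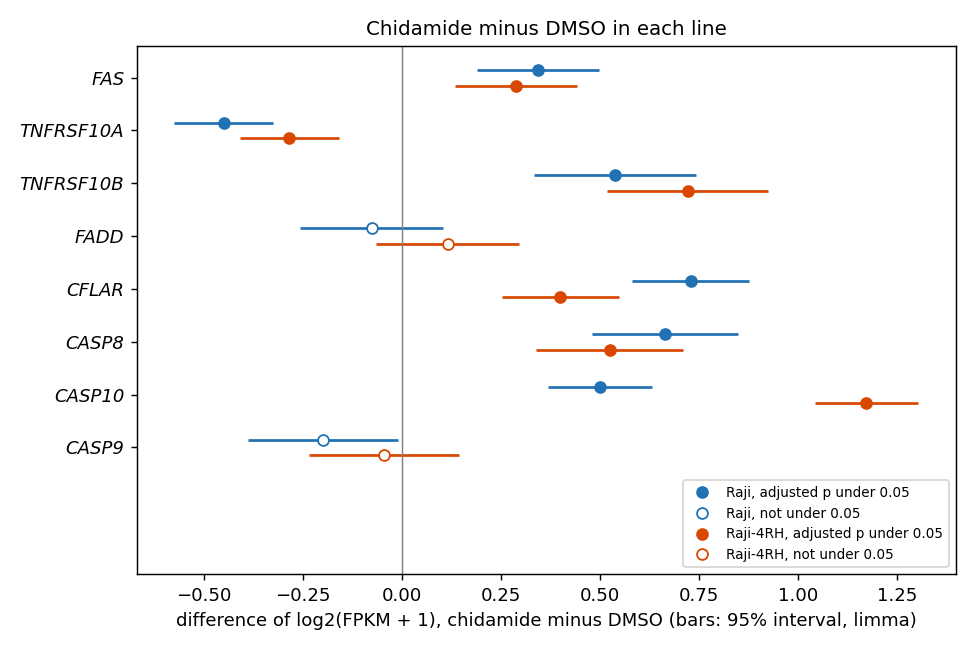
Difference of log2(FPKM + 1) between chidamide and DMSO in Raji (blue) and Raji-4RH (orange) for each gene, with the 95% interval from limma as a bar; filled points have an adjusted p under 0.05. TNFRSF10A alone lies below 0 with filled points in both lines, FADD and CASP9 have open points, and the Raji-4RH points of FAS and CFLAR would lie at -0.18 and -0.23 after quantile normalization.

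Counted together, 6 of 8 genes passed the test in Raji-4RH, 5 higher (FAS, TNFRSF10B, CFLAR, CASP8, CASP10) and 1 lower (TNFRSF10A), of which FAS and CFLAR turned lower after quantile normalization. Over all 10710 genes tested, 74.9% passed in this comparison, 43.3% higher and 31.6% lower, so the number that passed is near the background. The same 6 genes passed in Raji with the same directions, against a background of 60% (31.5% higher, 28.5% lower). With quantile normalization, median-centred samples or limma voom CASP9 passed as well in Raji, making 7 of 8. The FPKM of the groups did not overlap for 6 of 8 genes in Raji-4RH, against 86.5% of all genes tested, and for 7 of 8 in Raji, against 82.8%. Without CASP10 the count in Raji-4RH is 5 of 7. Of the calls in Raji-4RH, 57.9% were higher over all genes, and after quantile normalization 47.8% were. In Raji 52.5% were higher, against 47.0% with median-centred samples and 43.5% after quantile normalization. The median change over all genes tested in Raji-4RH was 0.093 and became -0.022 after quantile normalization, a shift of over 0.1. An exact permutation test of 2 against 2 libraries cannot give a two-sided p below 0.33, so single genes were tested only within the limma fit.

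Whether chidamide changed a gene more in one line than in the other was tested as an interaction, the change in Raji-4RH minus that in Raji. Of the 8 genes 2 passed, CASP10 higher at 0.67 (SE 0.081, limma adjusted p = 3.00e-04) and CFLAR lower at -0.33 (SE 0.091, limma adjusted p = 0.0172), against a background of 48.8% of all genes (27.2% higher, 21.7% lower). CASP10 passed the filter on low values only through the Raji-4RH chidamide libraries, so its interaction is a description. The interactions of both genes depend on the scale. With limma voom on the recovered reads, which compares relative changes, the CASP10 interaction was -2.47 (limma adjusted p = 0.0311) and that of CFLAR 0.34 (limma adjusted p = 0.166). With a pseudocount of 0.1 in place of 1 the values were 0.58 for CASP10 (limma adjusted p = 0.0914) and 0.071 for CFLAR (limma adjusted p = 0.787), and after quantile normalization CASP10 had -0.024 (limma adjusted p = 0.868). CASP10 gained more FPKM in Raji-4RH and had the larger relative change in Raji, where it started from 1 read. The CFLAR call was also lost without Raji DMSO replicate 1 (-0.27, limma adjusted p = 0.0592), Raji chidamide replicate 1 (-0.33, limma adjusted p = 0.0501) or 2 (-0.33, limma adjusted p = 0.0542), or Raji-4RH DMSO replicate 1 (-0.29, limma adjusted p = 0.0621), and in the fit to the rows as deposited, where the CFLAR row itself is the same (limma adjusted p = 0.0823).

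The other 6 genes did not pass for the interaction, and their intervals show what differences these libraries leave possible. The difference was -0.056 for FAS (95% interval -0.27 to 0.16, limma adjusted p = 0.650) and -0.14 for CASP8 (95% interval -0.40 to 0.12, limma adjusted p = 0.338). For TNFRSF10A it was 0.17 (95% interval -0.012 to 0.34, limma adjusted p = 0.109) and for TNFRSF10B 0.18 (95% interval -0.10 to 0.47, limma adjusted p = 0.256). FADD had 0.19 (95% interval -0.064 to 0.45, limma adjusted p = 0.186) and CASP9 0.15 (95% interval -0.12 to 0.42, limma adjusted p = 0.307). TNFRSF10B passed without Raji-4RH chidamide replicate 1 (0.31, limma adjusted p = 0.0228) and FADD without Raji-4RH chidamide replicate 2 (0.30, limma adjusted p = 0.0257). After quantile normalization FAS (-0.49, limma adjusted p = 0.00313), TNFRSF10A (0.32, limma adjusted p = 0.0126) and TNFRSF10B (0.46, limma adjusted p = 0.0190) passed as well.

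The lines differed at all 8 genes before treatment, where 73.6% of all genes tested passed (41.2% higher in Raji-4RH, 32.4% lower). Raji-4RH DMSO was higher than Raji DMSO for TNFRSF10A (0.88, FPKM ratio 1.92, limma adjusted p = 1.44e-06), TNFRSF10B (1.27, FPKM ratio 2.57, limma adjusted p = 3.10e-06) and CASP8 (0.69, FPKM ratio 1.88, limma adjusted p = 7.65e-05). It was lower for FAS (-1.52, FPKM ratio 0.254, limma adjusted p = 1.88e-07), FADD (-1.34, FPKM ratio 0.346, limma adjusted p = 1.07e-06) and CFLAR (-0.90, FPKM ratio 0.180, limma adjusted p = 3.68e-06). Both TRAIL receptors and CASP8 were thus higher in the resistant line, and FAS, the adaptor and the inhibitor lower. CFLAR passed the filter on low values only through the Raji libraries, so its difference between the lines is a description. The groups did not overlap for any of the 8 genes, against 88.5% of all genes tested. CASP9 was lower by a smaller amount (-0.37, FPKM ratio 0.731, limma adjusted p = 0.00355).

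CASP10 was higher in Raji-4RH DMSO by 0.15 (limma adjusted p = 0.0364), with 35 reads in Raji-4RH against 1 in Raji. That call was lost without either Raji DMSO library (0.15 without replicate 1, limma adjusted p = 0.112, and 0.16 without replicate 2, limma adjusted p = 0.0943). It was also lost without Raji chidamide replicate 1 (limma adjusted p = 0.0545) or 2 (limma adjusted p = 0.0547), without Raji-4RH DMSO replicate 1 (0.12, limma adjusted p = 0.184), with median-centred samples (0.11, limma adjusted p = 0.102), and in the fit to the rows as deposited (limma adjusted p = 0.175).

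Under chidamide the lines again differed at all 8 genes, 4 higher and 4 lower, with 79.3% of all genes tested passing (44.3% higher, 35% lower) and 88.5% not overlapping. The comparison shares its chidamide libraries with those above, so the values are given side by side and not as further evidence. The difference was -1.58 for FAS, 1.05 for TNFRSF10A, 1.46 for TNFRSF10B, -1.15 for FADD, -1.23 for CFLAR, 0.55 for CASP8 and 0.83 for CASP10, and the highest limma adjusted p among these was 2.54e-04. For CASP9 it was -0.22 (limma adjusted p = 0.0389). The values of CASP10 and CFLAR are descriptions. CASP10 passed the filter on low values only through the Raji-4RH chidamide libraries, and CFLAR only through the Raji libraries. The CASP9 call was lost without any single library except Raji chidamide replicate 2: it was -0.11 without Raji chidamide replicate 1 (limma adjusted p = 0.295) and -0.19 without Raji-4RH chidamide replicate 2 (limma adjusted p = 0.124), and without each of the other 5 the limma adjusted p lay between 0.0519 and 0.0548. It was also lost without the filter on low values (limma adjusted p = 0.0666) and in a fit to the compared libraries alone (limma adjusted p = 0.0786).

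**Figure D4:**
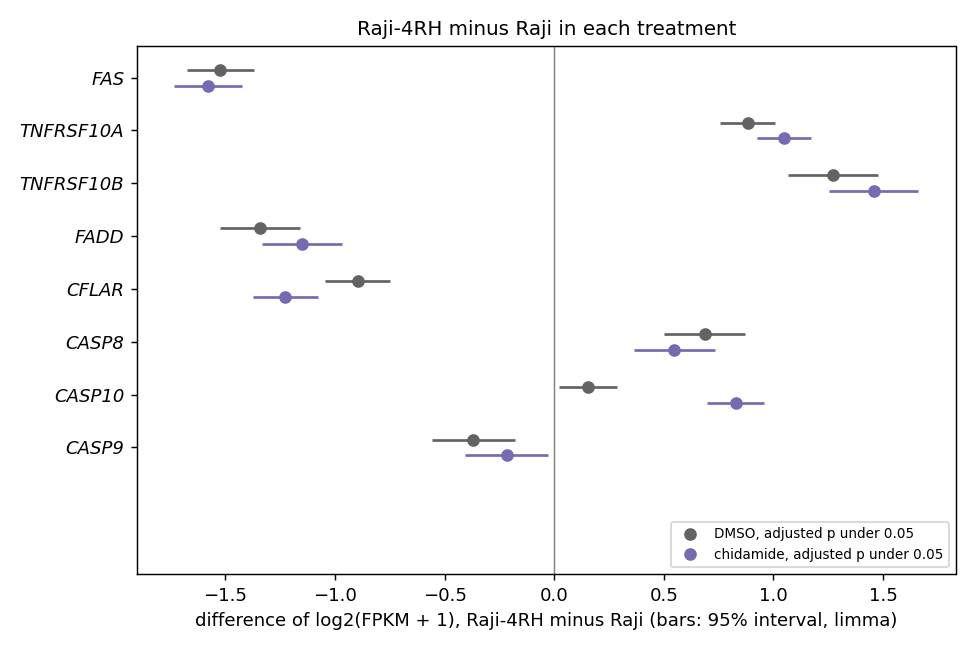
Difference of log2(FPKM + 1) between Raji-4RH and Raji for each gene, with DMSO (grey) and with chidamide (purple); bars are 95% intervals from limma and all points have an adjusted p under 0.05. FAS, FADD, CFLAR and CASP9 lie below 0 and TNFRSF10A, TNFRSF10B, CASP8 and CASP10 above 0 in both treatments.

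Levels can be ordered between genes on the FPKM scale, which divides by the length of the joined exons, so the order depends on it. In Raji DMSO the order of the means was FADD (12.4), TNFRSF10A (10.7), TNFRSF10B (9.31), FAS (6.96), CASP9 (5.17), CASP8 (2.28), CFLAR (1.29) and CASP10, and no neighbours overlapped. In Raji chidamide it was TNFRSF10B (14), FADD (11.7), FAS (9.11), TNFRSF10A (7.57), CASP9 (4.39), CASP8 (4.20), CFLAR (2.80) and CASP10 (0.419), where CASP9 and CASP8 overlapped. Raji-4RH DMSO had TNFRSF10B (23.9), TNFRSF10A (20.6), FADD (4.29), CASP8 (4.28), CASP9 (3.78), FAS (1.77), CFLAR (0.233) and CASP10 (0.117), and FADD and CASP8 overlapped. In Raji-4RH chidamide the order was TNFRSF10B (40.2), TNFRSF10A (16.7), CASP8 (6.61), FADD (4.75), CASP9 (3.63), FAS (2.38), CASP10 (1.52) and CFLAR (0.627), with no overlap between neighbours. The TRAIL receptors therefore stood above FAS in 3 of 4 groups, and in Raji chidamide FAS stood above TNFRSF10A. Raji-4RH chidamide was also the only group in which CASP10 stood above CFLAR. That order rests on the division by length, since CFLAR had more reads there (188 and 273 against 159 and 216 for CASP10). The place of CASP8 above CFLAR in both Raji groups rests on it as well. CFLAR had 536 and 628 reads in Raji DMSO against 320 and 338 for CASP8. In Raji chidamide it had 1297 and 1320 against 654 and 605.

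The rest of the pathway was read from a list of 65 other genes, of which 59 could be placed and 47 were tested. In Raji-4RH 20 of 47 were higher and 16 lower with chidamide, with a median change of 0.11 against 0.093 over all genes tested. With median-centred samples the split was 18 higher and 19 lower. In Raji 25 were higher and 11 lower, with a median of 0.17 against 0.017. The list's share that passed, 76.6% in both lines, stands beside the backgrounds of 74.9% and 60%.

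Among the ligands, FASLG, which encodes FAS ligand, was at 0 in every library but Raji-4RH chidamide replicate 2 (0.0288 FPKM). TNFSF10, which encodes TRAIL, had 0.423 and 0.743 FPKM in Raji DMSO against 1.37 and 1.33 in Raji chidamide, and 0.322 and 0.326 in Raji-4RH DMSO and 1.46 and 1.86 in Raji-4RH chidamide. TNFSF10 passed the filter on low values only through the chidamide libraries, so its changes are a description (0.58 in Raji, limma adjusted p = 0.00166, and 1.00 in Raji-4RH, limma adjusted p = 3.64e-05). TNFSF15, the ligand TL1A, passed it only through the Raji chidamide libraries. Its mean went from 0.190 to 1.95 FPKM in Raji (1.31) and from 0.0157 to 0.616 in Raji-4RH (0.67), and its interaction of -0.64 turned to 1.67 with limma voom. The TRAIL receptors that lack a working death domain, TNFRSF10C and TNFRSF10D, were under the filter, with at most 0.572 FPKM in any library.

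All 3 tested genes of the group of other death and decoy receptors were higher with chidamide in both lines, TNFRSF1A in Raji-4RH not after quantile normalization, beside 31.5% of all genes tested in Raji and 43.3% in Raji-4RH. TNFRSF1B, a TNF receptor without a death domain, went from 1.71 ± 0.0983 to 12.5 ± 0.122 FPKM in Raji (2.32 on the log2 scale, limma adjusted p = 7.00e-07) and from 0.539 ± 0.141 to 3.25 ± 0.576 in Raji-4RH (1.46, limma adjusted p = 2.88e-06; SD, n = 2). TNFRSF1A, the death domain receptor for TNF, rose by 0.21 in Raji-4RH (limma adjusted p = 0.0321), which turned to -0.18 after quantile normalization (limma adjusted p = 0.0669). Of 11 tested adaptors and signalling genes, 7 were higher and 1 lower in Raji, or 72.7% called beside 60% of all genes. In Raji-4RH 4 were higher and 5 lower, or 81.8% beside 74.9%, which is near the background. TRAF1, an adaptor of TNF receptors, had means of 5.91 and 36.1 FPKM in Raji and 4.21 and 6.52 in Raji-4RH, with changes of 2.43 and 0.52 and an interaction of -1.90 (limma adjusted p = 1.93e-05). In the ubiquitin group, TNFAIP3, which encodes the ubiquitin editor A20, had the largest rise of the list in both lines on the log2(FPKM + 1) scale, from 2.72 to 29.1 FPKM in Raji (3.02) and from 1.87 to 8.93 in Raji-4RH (1.79). SPATA2, a partner of the deubiquitinase CYLD, fell by 0.82 in Raji-4RH (limma adjusted p = 4.78e-04) and had -0.084 in Raji (limma adjusted p = 0.615).

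**Figure D5:**
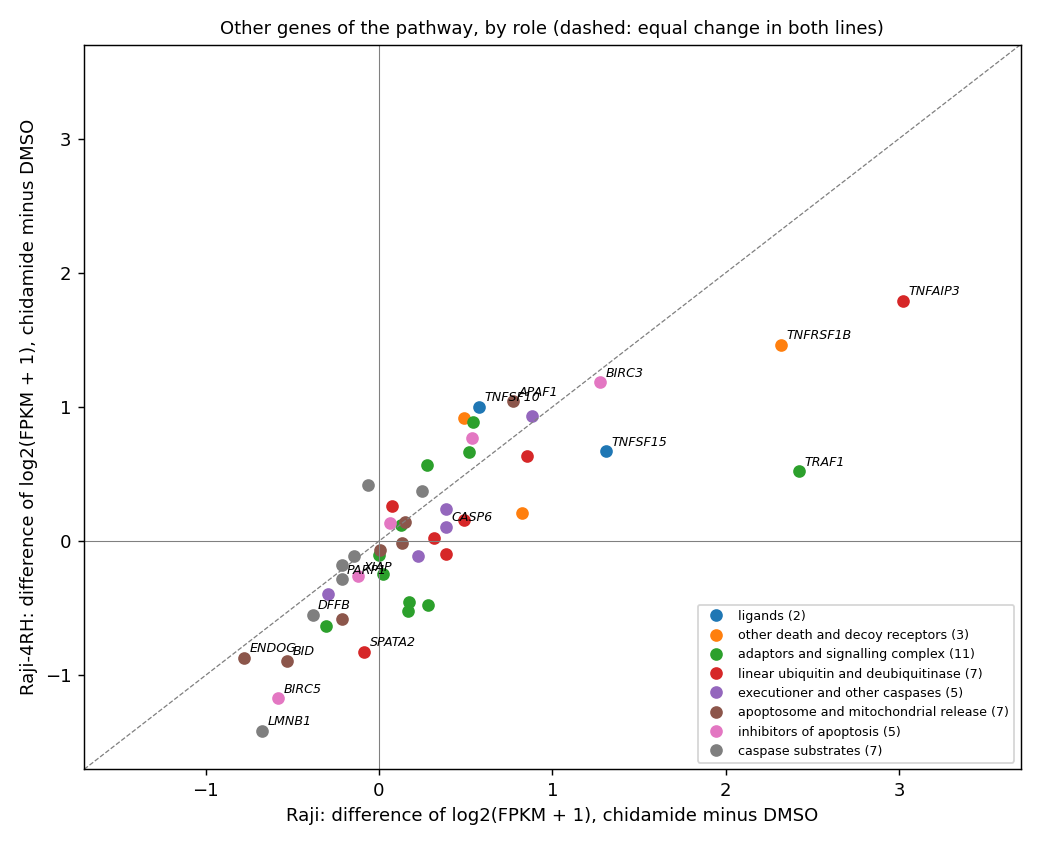
Change with chidamide (difference of log2(FPKM + 1)) in Raji (x axis) and Raji-4RH (y axis) for the 47 tested genes of the pathway list, coloured by role, with the number tested per role in brackets; the dashed line marks equal change. TNFAIP3 (3.02 and 1.79), TNFRSF1B (2.32 and 1.46) and TRAF1 (2.43 and 0.52) lie farthest to the right, and LMNB1 (-0.68 and -1.41) lies lowest.

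Downstream of the initiators, CASP6, an effector caspase, had 1.77 and 1.69 FPKM in Raji DMSO against 2.57 and 2.57 in Raji chidamide. The Raji-4RH libraries had 5.65 and 5.44 FPKM with DMSO and 5.92 and 6.18 with chidamide, all above the Raji libraries. CASP6 rose by 0.39 in Raji (limma adjusted p = 4.64e-04) and had 0.11 in Raji-4RH (limma adjusted p = 0.116). APAF1, the scaffold of the apoptosome, had means of 2.49 and 4.95 FPKM in Raji and 3.22 and 7.69 in Raji-4RH, and rose by 0.77 and 1.04, with an interaction of 0.27 (limma adjusted p = 0.0274). BID, which caspase-8 cleaves to link both routes, had means of 8.67 and 5.69 FPKM in Raji and 16.9 and 8.63 in Raji-4RH, and fell in both (-0.53 and -0.89). ENDOG, a mitochondrial nuclease, was lower as well (-0.78 in Raji, -0.87 in Raji-4RH).

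Of 5 tested inhibitors of apoptosis, 2 were higher and 2 lower in Raji-4RH, and 2 were higher and 1 lower in Raji. These are 80% and 60% called, beside 74.9% and 60% of all genes. BIRC3, which encodes cIAP2, went from 88.4 to 215 FPKM in Raji (1.28) and from 21.8 to 50.8 in Raji-4RH (1.18). BIRC5, which encodes survivin and is known for its role in cell division, went from 44.4 to 29.4 FPKM in Raji (-0.58) and from 36.7 to 15.7 in Raji-4RH (-1.17). XIAP, a direct inhibitor of caspases, had -0.12 in Raji (limma adjusted p = 0.0927) and -0.26 in Raji-4RH (limma adjusted p = 0.00255). Of 7 tested caspase substrates, 85.7% were called in each line, beside 60% of all genes in Raji and 74.9% in Raji-4RH: 5 were lower and 1 higher in Raji, and 4 were lower and 2 higher in Raji-4RH, where ACIN1 (-0.18, limma adjusted p = 0.0158) turned to 0.038 after quantile normalization. LMNB1, which encodes lamin B1, had means of 73.1 and 45.4 FPKM in Raji and 120.5 and 44.6 in Raji-4RH, with changes of -0.68 and -1.41. PARP1, a DNA repair enzyme whose cleavage marks apoptosis, had -0.21 and -0.28, and DFFB, the caspase-activated DNase, had -0.38 in Raji and -0.55 in Raji-4RH.

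For each gene, up to 2 genes of at least 5 FPKM on average whose log2(FPKM + 1) tracked it best over the 8 libraries were looked up. The libraries share 4 groups, so these Pearson r values are descriptions. They were FBXO11 (0.998) and SNX25 (0.997) for FAS, DDIT3 (0.998) and MAVS (0.997) for TNFRSF10A, NCOA7 (0.997) and DOCK6 (0.996) for TNFRSF10B, and LAPTM4A (0.998) and SF3B6 (0.996) for FADD. For the others they were EBI3 (0.997) for CFLAR, ACTG1 (0.997) and WWC3 (0.996) for CASP8, UBL3 (0.999) and HIST3H2A (0.997) for CASP10, and GNPNAT1 (0.958) and MSL2 (0.944) for CASP9. CASP9 thus had the weakest best match of the 8. None of these genes is another of the 8, but CFLAR, CASP8, CASP10 and CASP9 averaged under 5 FPKM and so could not be matches.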

How the data were processed

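RNA-seq of 8 libraries was analysed. Per the submitters' processing notes, HISAT2 2.0.5, SAMtools 1.7 and HTSeq 0.9.1 were used with GRCh38, and the kit was NEBNext Ultra. The deposited values are FPKM, 1 per gene in each of the 8 libraries, beside gene lengths. Of the non-zero values, 99.9991% were whole reads within 0.1 read after multiplying by length and library total.

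The last 662 of 63967 rows repeat the reads of the first 662, so values lie below some labels. Each label was given the row at a distance fixed per range of rows, with FPKM rescaled to the label's gene length; 28 labels between ranges and labels past row 18171 were left out. This placed 18143 labels and 90.7% to 93.2% of reads. Checked against levels learned from gene descriptions on the first 6000 rows, the distance used fitted best in 11 of 11 ranges. Of the 8 genes, FADD and CASP9 were shifted.

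Differences were tested with limma 3.58.1 (lmFit, eBayes with trend, R 4.3.3) on log2(FPKM + 1), over all 8 libraries in 1 fit, for the 10710 genes that reached 1 FPKM in 2 or more libraries, and called at a Benjamini-Hochberg adjusted p under 0.05 over these genes. Fold changes on this scale understate those of low genes. On simulated data for chidamide in Raji-4RH over 10710 genes, 41 of 50 genes changed 1.5-fold, 47 of 50 changed 2-fold and 50 of 50 changed 4-fold were called, with 14 unchanged genes. In the simulation far fewer genes changed than passed in the data, none of them had few reads, and all groups had the same spread. These rates therefore do not carry over to low genes such as CASP10 or to the replicate noise of these groups. The alternatives were quantile normalization, median-centred samples, a pseudocount of 0.1, dropping the filter or keeping genes that average 1 FPKM or more, no trend, a fit to the compared libraries alone, a block for the replicate number, a log2 change of at least 1, limma voom on the recovered reads, the rows as deposited and leaving out each library; a block with crossed numbers was added after seeing the data. Named genes are the 8, preset genes of the pathway list (CASP6, PARP1, FASLG, TNFSF10, APAF1, XIAP), the 5 largest called non-overlapping changes of that list per direction and line, and the 2 closest matches of each gene, some of which are not reported here; ACIN1, TNFRSF1A, TNFRSF10C and TNFRSF10D were named after their values were seen. The genes and lists were chosen with earlier results of these data known. Replicates differed beyond sampling noise in every group. The chi-square per degree of freedom was largest for Raji-4RH chidamide (13.5), followed by Raji DMSO (5.25), Raji-4RH DMSO (2.34) and Raji chidamide (1.77). The limma fit pools the spread of all groups. The p-values of comparisons that use Raji-4RH chidamide, the interaction among them, may therefore be too low. Coordinates and exon overlaps are those of GENCODE v29 on GRCh38; Python 3.11.15 with pandas 2.3.3, numpy 2.4.6, scipy 1.17.1, scikit-learn 1.9.0 and matplotlib 3.10.9 was used.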

Additional observations from a re-analysis of the deposited data

Results flagged for a closer look

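The change with chidamide differed between the lines for 2 of the 8 genes by the interaction term of the limma fit, a smaller share than the 48.8% of all 10710 genes tested. For CASP10 the difference (Raji-4RH minus Raji, on the log2(FPKM + 1) scale) was 0.67, from changes of 1.17 in Raji-4RH and 0.50 in Raji. CASP10 passed the filter on low values only through the Raji-4RH chidamide libraries, so this difference is a description. For CFLAR it was -0.33, from changes of 0.40 and 0.73. On the relative scale of limma voom the signs were opposite, at -2.47 for CASP10 and 0.34 for CFLAR. With 2 libraries in each group, no single library was tested for standing apart.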

How the results depend on the processing

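Over 40 results for the 8 genes and their alternatives (787 values), 712 kept their direction and their side of the threshold, 46 no longer passed (21 of these under a log2 change of at least 1), 13 newly passed and 16 reversed. Under a log2 change of at least 1, the numbers called among the 8 genes, the pathway list and all genes were 1, 7 and 1620 for chidamide in Raji-4RH, 0, 5 and 560 in Raji, 0, 2 and 676 for the interaction, 3, 3 and 1703 between the DMSO groups, and 5, 7 and 2228 between the chidamide groups. The interaction was called for 0 of the 8 genes with a pseudocount of 0.1 (4915 of all genes), 1 among those averaging 1 FPKM or more, which leaves out CASP10 (4635), 4 after quantile normalization (5051) and 1 with limma voom (4716), against 2 and 5231 as reported. With voom, 8113 genes were called for chidamide in Raji-4RH and 6662 in Raji.

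Reversed after quantile normalization in Raji-4RH were FAS (-0.18), FADD (-0.095) and CFLAR (-0.23), and for the interaction FADD (-0.043), CASP10 (-0.024) and CASP9 (-0.052). Reversed for the interaction were also FAS (0.026) and CFLAR (0.071) with a pseudocount of 0.1, and FAS (0.053), CFLAR (0.34) and CASP10 (-2.47) with voom. On the rows as deposited, FADD and CASP9 take the values of other rows: CASP9 in Raji-4RH had 0.62 and FADD had 0.18 for chidamide in Raji, 0.41 between the DMSO groups and 0.42 between the chidamide groups. Leaving out each library moved CASP9 in Raji-4RH between -0.093 and 0.0027, the latter without Raji-4RH DMSO replicate 2. Other causes were not tested.

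Leaving out each library gave 6 to 7 of the 8 genes for chidamide in either line, 1 to 3 for the interaction and 7 to 8 for both comparisons of the lines. For the pathway list it gave 33 to 39, 29 to 38, 18 to 26, 33 to 43 and 31 to 38 in the same order, and for all genes 7168 to 8087, 5128 to 7115, 4044 to 6042, 6960 to 8438 and 7707 to 8583. A group left with 1 library is assumed to vary like the others.

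The replicate numbers as given showed no clear pairing: deviations of same-numbered libraries correlated between -0.28 and 0.17. Those of Raji DMSO correlated negatively with Raji chidamide (-0.091), Raji-4RH DMSO (-0.16) and Raji-4RH chidamide (-0.28). Whether libraries of different groups shared a batch was not tested. With the replicate as a block, 6, 6, 2, 7 and 8 of the 8 genes and 7886, 6183, 4915, 7748 and 8397 of all genes were called, and among the 8 genes only CASP10 between the DMSO groups was lost (limma adjusted p = 0.0567). With the Raji DMSO numbers crossed, 6, 6, 2, 7 and 8 of the 8 genes and 8190, 6587, 5509, 8037 and 8604 of all genes were called, a choice made after seeing the data. Depth limits CASP10 in Raji DMSO (0 and 1 reads) and CFLAR in Raji-4RH DMSO (96 to 112 reads).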
